A study of Mus musculus with 6 samples.

Results

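The Rab GTPases are small proteins that tag the membranes of the cell's transport system. Of the 10989 genes in the deposited table, 40 carry a symbol made of Rab, a number and at most a letter and a further digit, with the Rab3 genes of the synaptic vesicle left out (3 genes). The rule reads symbols alone and no measured value, but it was chosen with earlier results of these data known. In GENCODE M21, an annotation of the mouse genome, 55 protein-coding genes fit the same rule, and the other 15 were not analysed here. The table uses 2 older names among the genes it holds, Rab1 for Rab1a and Rab7l1 for Rab29.

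Total RNA from mouse brain was sequenced with a directional kit in 6 libraries, 3 called Input and 3 called Positive. Every library has the genotype Tie2-cre+; NuTRAP+ and the title label WT, so the driver and the reporter are shared by both groups and no library without them was compared. The Tie2 (Tek) promoter drives Cre in endothelial cells and also in part of the blood lineage, and NuTRAP is a Cre-dependent reporter that tags ribosomes with EGFP and nuclei with mCherry. Input is the dissociated brain cell suspension, which itself holds endothelial cells, and Positive is the cells sorted from it as EGFP+, CD31+ and CD11b-. The sources used here give no age, sex or treatment. Each group has libraries numbered 1222, 1223 and 1227, and the values below follow that order within a group. The series text calls the replicates biological, while the labels do not say what a number stands for, so the p-values measure the spread between these libraries.

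A Rab protein is a switch. It is loaded with GTP by an exchange factor (GEF), recruits effectors such as motors and tethers while GTP is bound, and is turned off by a GTPase-activating protein (GAP). A lipid tail holds it on the membrane, and the dissociation inhibitor GDI returns it to the cytosol. Different Rabs mark different compartments, from the endoplasmic reticulum and Golgi to early, recycling and late endosomes, and in brain endothelium this traffic carries receptors and junction proteins between the blood-facing, junctional and tissue-facing membranes.

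The summed depth was 4772866 to 52283556 estimated counts per library, and both libraries numbered 1223 were the shallow ones at 4814966 (Input) and 4772866 (Positive). Levels are given as CPM, the usual per-library scale of read counts, after TMM scaling, which corrects library size for the make-up of the RNA. Of the endothelial markers, 11 of 11 were higher in Positive. Their summed level was 2975 to 3907 CPM in Input and 22877 to 24372 CPM in Positive. Pecam1 (CD31) and Tek are among them. The sort used CD31 and a reporter switched on by Tek-driven Cre, so Pecam1 and Tek add no separate support for the label. Lower were 7 of 7 oligodendrocyte, 8 of 8 microglial and 7 of 7 astrocyte markers. Among the microglial markers the fall of Itgam (CD11b) adds nothing, since the sort left out CD11b+ cells. Nor does that of the astrocyte marker Gfap, which had entered the table through Input only. All 7 neuronal markers tested (of 8 listed) were lower as well, but 6 of the 7 had entered the table through Input only, so that count adds nothing to their levels. Markers of 2 other perivascular cell types were also higher, namely 7 of 8 for pericytes (631 to 752 CPM summed in Input and 1193 to 1947 CPM in Positive) and 6 of 7 for perivascular macrophages (242 to 318 CPM in Input, against 2047, 747 and 296 CPM in Positive). With the library number as a block, 2 of those 6 macrophage markers were still called (Cbr2 and Mrc1), and the other 4 had edgeR adjusted p-values of 0.0623 to 0.0648. The pericyte marker Higd1b and the macrophage marker Ms4a7 had entered the table through Positive only, so their calls add nothing.

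As a group the Rab genes did not move to one side. In edgeR's quasi-likelihood test with Benjamini-Hochberg adjustment over all 10989 genes (threshold 0.05), 11 of the 40 were higher in Positive, 11 were lower and 18 were not called. The share higher was 27.5% against a background of 26.1% of all genes, and the share lower was 27.5% against 29.4%, so both counts lay near the background. Differences of at least 2-fold were called for 4 genes upward (10%, background 12.7%) and 6 downward (15%, background 22%). The median log2 fold change of the 40 genes was 0.05, beside 0.03 for all genes, and the median size of the change was 0.51 beside 0.63. The summed level of the family was 3676, 3725 and 4019 CPM in Input and 4009, 4176 and 4222 CPM in Positive.

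All 22 called Rab genes had the same direction within each of the 3 library numbers and groups that did not overlap. Nearly every called gene of the table did so too (99.7% and 98.4% of 6097), so this says nothing particular to the family. Groups also did not overlap for some genes that were not called: in all, 15 members had every Positive library above every Input library (37.5%, background 31.8%) and 13 had every one below (32.5%, background 32.6%). The 18 genes that were not called had log2 fold changes of -0.67 to 0.47, and 16 of them lay within 0.5 of zero. Without scaling beyond library size, the median of all genes shifted by -0.16 and the counts became 8 higher (background 19.7%) and 13 lower (background 33.4%), with Rab5c, Rab8a and Rab18 no longer called and Rab10 and Rab5a called lower. With the library number as a block, the counts were 13 higher (background 30%) and 12 lower (background 31.7%).

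**Figure D1:**
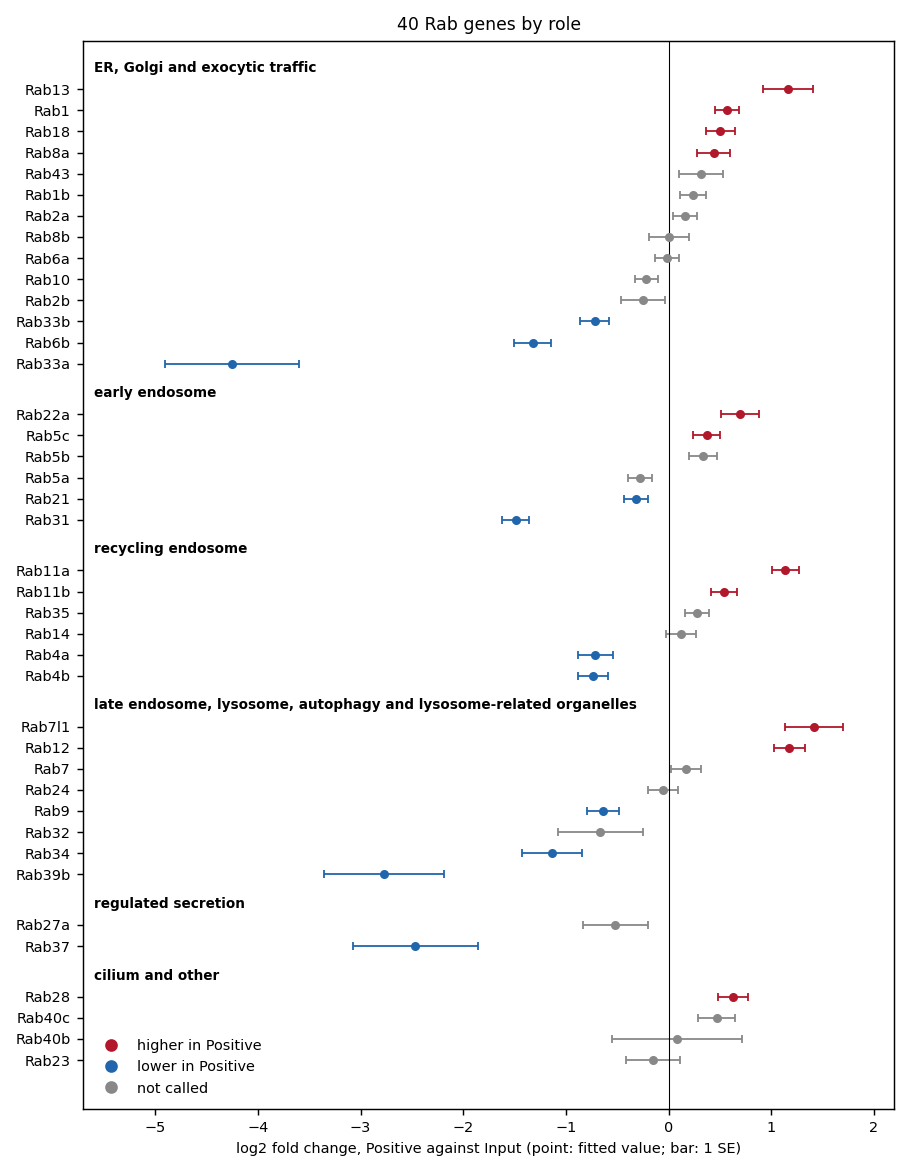
Fitted log2 fold change (x axis, Positive against Input) of each of the 40 Rab genes, grouped by role. Points are edgeR's fitted values and bars 1 standard error; each of the larger role groups holds genes on both sides of zero, from Rab33a at -4.25 to Rab7l1 at 1.42.

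How the table was filtered bears on these counts. The table holds only genes whose raw value reached 50 in every library of 1 fraction or of both. Of the 40 Rab genes, 35 passed in both fractions and 5 in Input only (Rab33a, Rab39b, Rab37, Rab34 and Rab32). No Rab gene passed through Positive only. A gene that passed only through Input had to be low in at least 1 Positive library, so the lower calls of 4 of those 5 are given as values and support nothing further. Of all genes that passed in 1 fraction only, 61.7% were lower and 11.6% higher. Among the 35 that passed in both, 11 were higher (background 30.4% of such genes) and 7 lower (background 19.9%).

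The promoters of 4 of the genes called with at least a 2-fold difference are printed here because they show how unlike the start regions of this family can be. They are the higher Rab11a and Rab13 and the lower Rab33a and Rab39b. Sequences are from RefSeq (build GRCm38.p6), read 5' to 3' on the gene's strand, and cover the 250 bases before the annotated start. Rab11a lies at chr9:64737757-64738006 on the minus strand, Rab13 at chr3:90220534-90220783 on the plus strand, Rab33a at chrX:48519035-48519284 on the plus strand and Rab39b at chrX:75578232-75578481 on the minus strand. Capitals mark matches on either strand to CCGGAAG, a form of the site read by ETS factors, and to TATAAA, the TATA motif.
Rab11a: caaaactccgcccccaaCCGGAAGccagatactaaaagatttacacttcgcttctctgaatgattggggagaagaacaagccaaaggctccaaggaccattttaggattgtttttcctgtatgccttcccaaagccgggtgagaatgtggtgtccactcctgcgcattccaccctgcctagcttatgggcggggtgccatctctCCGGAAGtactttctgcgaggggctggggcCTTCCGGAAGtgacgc
Rab13: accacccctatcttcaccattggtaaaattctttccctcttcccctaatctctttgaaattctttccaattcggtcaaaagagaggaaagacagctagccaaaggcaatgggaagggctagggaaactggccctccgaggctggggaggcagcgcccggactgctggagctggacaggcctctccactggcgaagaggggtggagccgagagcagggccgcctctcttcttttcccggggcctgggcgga
Rab33a: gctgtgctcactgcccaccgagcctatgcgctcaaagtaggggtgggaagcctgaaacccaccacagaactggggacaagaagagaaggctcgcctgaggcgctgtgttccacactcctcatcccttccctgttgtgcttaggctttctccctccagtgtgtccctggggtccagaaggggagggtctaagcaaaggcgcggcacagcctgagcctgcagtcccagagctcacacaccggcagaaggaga
Rab39b: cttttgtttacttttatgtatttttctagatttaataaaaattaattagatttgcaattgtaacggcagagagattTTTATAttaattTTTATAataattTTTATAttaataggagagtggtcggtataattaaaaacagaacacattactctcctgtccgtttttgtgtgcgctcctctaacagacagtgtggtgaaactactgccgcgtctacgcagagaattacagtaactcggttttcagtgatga
The Rab11a window held CCGGAAG at 3 places, and the copy nearest the start overlapped a match on the other strand. The Rab39b window held TATAAA on the other strand at 3 places and had a GC content of 31.6%, whereas the Rab13 and Rab33a windows held neither motif. RefSeq promoters were matched for 36 of the 40 Rab genes and for 8784 genes of the table. CCGGAAG was present in 3 of the 36 Rab windows (Rab11a, Rab8a and Rab24, 8.33%) and in 13.8% of all windows. TATAAA was present in 1 Rab window (2.78%) and in 6.02% of all windows. The CRE palindrome TGACGTCA was found in 1 Rab window (Rab5a), against 2.81% of all, and the E-box CACGTG in 3 (Rab5a, Rab21 and Rab23), against 8.61% of all. The median GC content was 62.4% in the Rab windows and 60.4% in all.

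Of the 6 recycling endosome Rabs, 2 were higher, 2 lower and 2 not called (background 26.1% higher, 29.4% lower). The Rab11 pair, which returns cargo from the recycling endosome to the surface, rose, and the Rab4 pair, which acts in the fast return route from early endosomes, fell. Rab11a (chromosome 9, 64715300 to 64737756, mm10) was at 102, 111 and 117 CPM in Input and 213, 268 and 248 CPM in Positive. Every Positive library lay above every Input library, with a mean of 110 ± 7.58 against 243 ± 27.7 CPM (SD, n = 3 each). The fold change was 2.2 (log2 1.14 ± 0.13 SE, edgeR adjusted p = 0.000129).

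Rab11b (chromosome 17, 33742484 to 33760486) rose less, from 172, 202 and 201 CPM to 256, 295 and 286 CPM (log2 0.54 ± 0.13 SE, edgeR adjusted p = 0.0064). Its groups did not overlap either, and its call was lost without both libraries numbered 1227 (adjusted p = 0.0706). Some 9.75% of the 50-base windows of the Rab11b exons also occur in other annotated genes. Rab4a fell by 0.71 and Rab4b by 0.74 on the log2 scale (SE 0.17 and 0.15, edgeR adjusted p = 0.00698 and 0.00275). Rab4a lost its call without both libraries numbered 1227 (adjusted p = 0.0955). The value of Rab4b is uncertain in another way, since 80.3% of its 50-base windows are shared with the overlapping gene Gm21983.

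Rab14, a Rab of traffic between the Golgi and endosomes, had the highest mean CPM of the 6 in Input and the third highest in Positive. It was at 226, 175 and 237 CPM in Input and 224, 242 and 231 CPM in Positive, and the groups overlapped (log2 0.12 ± 0.14 SE, edgeR adjusted p = 0.495). Rab35, which acts in fast recycling, was not called, at log2 0.27 ± 0.12 SE.

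Among the 14 Rabs of the endoplasmic reticulum, Golgi and outward traffic, 4 rose, 3 fell and 7 were not called (background 26.1% higher, 29.4% lower). Rab13 led the rises. It directs vesicles toward cell borders and tight junctions, the seals between brain endothelial cells. Rab13 (chromosome 3, 90220817 to 90225963) was at 11.5, 16.8 and 17.8 CPM in Input and 29.1, 30.2 and 42.9 CPM in Positive. All Positive libraries were above all Input libraries, a 2.23-fold difference (15.4 ± 3.39 against 34.0 ± 7.68 CPM, SD, n = 3 each; log2 1.16 ± 0.24 SE, edgeR adjusted p = 0.00364).

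Rab1, the Rab of transport from the endoplasmic reticulum to the Golgi, was among the most abundant members. It was at 184, 197 and 196 CPM in Input and 262, 296 and 298 CPM in Positive (chromosome 11, 20201602 to 20226856). The rise was 1.48-fold (log2 0.57 ± 0.12 SE, edgeR adjusted p = 0.00332) with groups well apart, and it was not called without both libraries numbered 1227 (adjusted p = 0.0653). Rab18, linked to lipid droplets and the endoplasmic reticulum, rose by log2 0.50 ± 0.14 SE, and Rab8a, which serves outward traffic and the cilium, by log2 0.44 ± 0.16 SE (edgeR adjusted p = 0.0162 and 0.0427). Both calls depended on single libraries. Rab18 was not called without Input 1222, Input 1227, Positive 1223 or Positive 1227 (adjusted p = 0.0503 to 0.0625), nor Rab8a without any one of the libraries other than Input 1223 (adjusted p = 0.0712 to 0.143).

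Rab2a, a Golgi Rab, had the highest mean CPM of this group over all 6 libraries and was not called. Rab10 was above it in Input and Rab1 in Positive. Rab2a was at 218, 234 and 246 CPM in Input and 243, 272 and 266 CPM in Positive, with overlapping groups (log2 0.16 ± 0.12 SE, edgeR adjusted p = 0.275). Rab10, which brings vesicles to the surface, and Rab6a, a Golgi Rab, were also abundant and not called, at log2 -0.22 ± 0.11 SE and -0.01 ± 0.12 SE. Rab10 was lower in every Positive library (216 to 223 CPM) than in any Input library (246 to 266 CPM).

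The 3 Golgi Rabs that fell were Rab33a, Rab6b and Rab33b. Rab33a, studied mainly in neurons, showed the largest difference of the family. Rab33a (chromosome X, 48519470 to 48530232) was at 8.83, 17.4 and 10.2 CPM in Input and 0.452, 1.77 and 0.318 CPM in Positive. Each Positive library was far below each Input library, at a fitted 19.1-fold difference (log2 -4.25 ± 0.65 SE, edgeR adjusted p = 0.00062). The Positive values rest on 6.43 to 9.74 estimated counts per library, and without Positive 1223 the log2 fold change was -4.91.

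Rab6b, the form of Rab6 enriched in neurons, was at 152, 112 and 171 CPM in Input and 59.3, 51.9 and 62.1 CPM in Positive (chromosome 9, 103112074 to 103185270). It fell 2.50-fold with no overlap (145 ± 30.1 against 57.8 ± 5.27 CPM, SD, n = 3 each; log2 -1.32 ± 0.18 SE, edgeR adjusted p = 0.000276). Rab33b, a Golgi Rab that binds the autophagy protein Atg16l1, fell by 0.72 on the log2 scale (SE 0.14, edgeR adjusted p = 0.00237). It was not called without both libraries numbered 1227 (adjusted p = 0.0541).

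The neuronal markers were lower beside these falls, with the limit given above for 6 of them. Their summed level was 503 to 631 CPM in Input and 45.6 to 69.6 CPM in Positive, and none was at 0 in Positive. Stmn2, the only neuronal marker that passed in both fractions, fell less, at a fitted 2.28-fold. It was at 58.2, 96.5 and 57.7 CPM in Input and 23.3, 27.3 and 41.5 CPM in Positive. The part of neuronal RNA in the falls was not tested. In bulk libraries such as these, fewer cells of a type and less RNA per cell cannot be told apart.

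**Figure D2:**
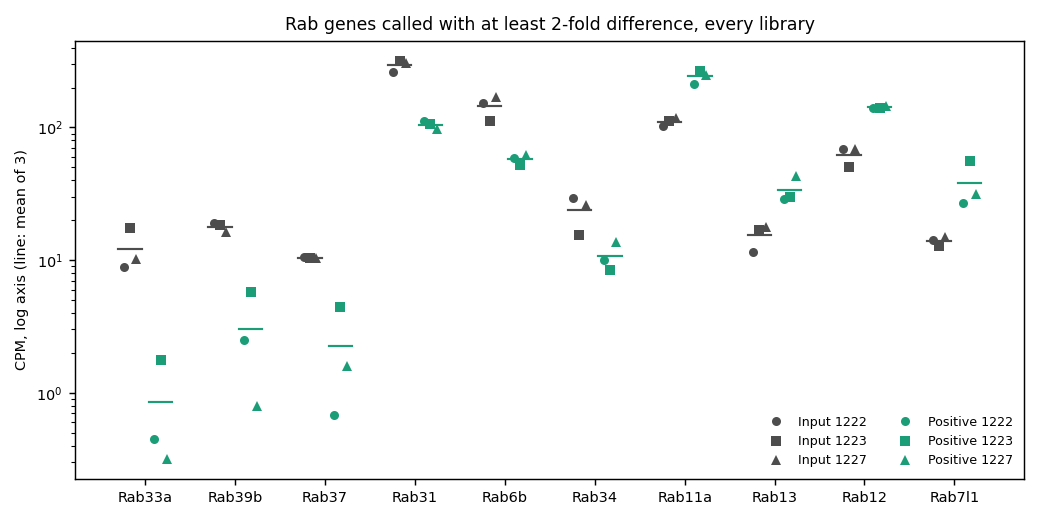
CPM in every library (y axis, log scale) for the 10 Rab genes called with at least a 2-fold difference. Marker shape gives the library number, colour the fraction and the line the mean of 3; Input and Positive points do not overlap for any of the 10 genes, and Positive 1223 is the highest Positive library for Rab33a, Rab39b, Rab37, Rab11a and Rab7l1.

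Early endosome Rabs also moved both ways, with 2 of 6 higher, 2 lower and 2 not called (background 26.1% higher, 29.4% lower). Rab31, also known as Rab22b, carries cargo between the Golgi and early endosomes. Rab31 (chromosome 17, 65651726 to 65772752) was at 263, 319 and 306 CPM in Input and 112, 106 and 97.1 CPM in Positive. The groups were far apart and the spread small, a 2.81-fold fall (296 ± 29.2 against 105 ± 7.66 CPM, SD, n = 3 each; log2 -1.49 ± 0.13 SE, edgeR adjusted p = 2.5e-05). This was the most abundant Rab in Input by mean CPM.

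Glial markers fell alongside Rab31. The oligodendrocyte markers summed to 18552 to 27345 CPM in Input and 620 to 1349 CPM in Positive, and the astrocyte markers to 5282 to 8308 and 531 to 826 CPM. None of these markers was at 0 in Positive, and their part in the fall of Rab31 was not tested.

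The Rab5 proteins control fusion and sorting at the early endosome. Rab5c (chromosome 11, 100715266 to 100738130) was at 216, 204 and 252 CPM in Input and 292, 263 and 313 CPM in Positive (log2 0.37 ± 0.13 SE, edgeR adjusted p = 0.0442). The groups did not overlap, but the call was lost without Input 1222, Input 1223, Positive 1222 or Positive 1227 (adjusted p = 0.0911 to 0.159). Rab5b (chromosome 10, 128677183 to 128696268) was at 173, 224 and 207 CPM in Input and 235, 270 and 256 CPM in Positive. Its groups stood apart as well, at log2 0.33 ± 0.14 SE, with an edgeR adjusted p of 0.0686, and of 0.0159 with the library number as a block. Rab5a lay on the other side, with 148, 132 and 151 CPM in Input and 125, 117 and 114 CPM in Positive (log2 -0.28 ± 0.12 SE, edgeR adjusted p = 0.0784, and 0.044 with the block).

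Rab22a, which acts in endosomal sorting and recycling, rose 1.62-fold (log2 0.70 ± 0.19 SE, edgeR adjusted p = 0.0117). It was at 33.9, 23.8 and 36.5 CPM in Input and 55.3, 52.5 and 46.6 CPM in Positive, and it was not called without both libraries numbered 1222 (adjusted p = 0.0548). Rab21, which traffics integrins, fell by only 0.32 on the log2 scale (SE 0.12, edgeR adjusted p = 0.0457). Leaving out any single library ended that call (adjusted p = 0.0679 to 0.153).

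Of the 8 Rabs of late endosomes, lysosomes, autophagy and lysosome-related organelles, 2 rose, 3 fell and 3 were not called (background 26.1% higher, 29.4% lower). The rises were Rab7l1 and Rab12. Rab7l1 (Rab29; chromosome 1, 131867277 to 131872889) was at 14.3, 12.8 and 14.9 CPM in Input and 27.0, 55.7 and 31.6 CPM in Positive. Positive 1223 was the highest, and the lowest Positive library was still above every Input library (14 ± 1.10 against 38.1 ± 15.4 CPM, SD, n = 3 each). The rise was 2.67-fold (log2 1.42 ± 0.28 SE, edgeR adjusted p = 0.00259).

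Rab12, which directs receptors from recycling endosomes to lysosomes, also rose, with closely spaced Positive libraries. Rab12 (chromosome 17, 66494512 to 66519670) was at 68.4, 50.5 and 68.4 CPM in Input and 141, 140 and 145 CPM in Positive. The Positive libraries lay within a few CPM of one another and all above Input (62.4 ± 10.3 against 142 ± 2.88 CPM, SD, n = 3 each). The rise was 2.26-fold (log2 1.18 ± 0.15 SE, edgeR adjusted p = 0.000198). The kinase Lrrk2, from the list of Rab effectors read below, was not called, at 33.6, 21 and 20.2 CPM in Input and 34.5, 31 and 27.1 CPM in Positive (log2 0.30 ± 0.23 SE, edgeR adjusted p = 0.302).

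Rab7, the master Rab of late endosomes, was not called. It was at 101, 90.5 and 96.1 CPM in Input and 123, 88.9 and 111 CPM in Positive (chromosome 6, 88000435 to 88013690; log2 0.17 ± 0.15 SE, edgeR adjusted p = 0.357). Some 14.5% of its 50-base windows are shared with other annotated genes. Rab24, an autophagy-linked Rab, was close to equal, at log2 -0.06 ± 0.15 SE.

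Rab39b, an X-linked Rab that is mainly neuronal, was the largest fall of this group. Rab39b (chromosome X, 75572058 to 75578204) was at 18.9, 18.4 and 16.4 CPM in Input and 2.49, 5.76 and 0.794 CPM in Positive. The Positive libraries varied several-fold among themselves, yet all lay below Input (log2 -2.77 ± 0.58 SE, edgeR adjusted p = 0.00363). Without Positive 1223 the log2 fold change was -3.42, and without both libraries numbered 1223 it was -3.40. The window printed above with its 3 TATAAA matches belongs to this gene.

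Rab34 and Rab9 were the other falls of this group. Rab34, a Rab of lysosome positioning and cilium formation, was at 29.4, 15.4 and 26.2 CPM in Input and 10.0, 8.43 and 13.8 CPM in Positive (chromosome 11, 78188427 to 78192193). Input 1223 came close to the highest Positive library without overlap (log2 -1.14 ± 0.30 SE, edgeR adjusted p = 0.0108), and the call was lost without both libraries numbered 1222 (adjusted p = 0.113). Rab9, which returns mannose 6-phosphate receptors to the Golgi, fell by 0.64 on the log2 scale (SE 0.16, edgeR adjusted p = 0.00779), also not called without both numbered 1222 (adjusted p = 0.0615).

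Rab32, a Rab of lysosome-related organelles known in myeloid and pigment cells, was uneven in the sorted cells. It was at 21.3, 13.4 and 21.7 CPM in Input and 19.4, 5.54 and 9.80 CPM in Positive (log2 -0.67 ± 0.41 SE, edgeR adjusted p = 0.204). Its highest Positive library, 1222, was also the one with the most perivascular macrophage marker RNA (2047 CPM summed) and the most microglial marker RNA (2370 CPM summed, against 1374 and 1250 CPM). None of these markers was at 0 in Positive, and their part in the spread of Rab32 was not tested.

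Regulated secretion was represented by Rab37 and Rab27a. Rab37, first described on mast cell granules, was at 10.6, 10.4 and 10.4 CPM in Input and 0.678, 4.43 and 1.59 CPM in Positive (chromosome 11, 115091431 to 115162240). Input was nearly constant and every Positive library was lower (log2 -2.47 ± 0.61 SE, edgeR adjusted p = 0.00839). Without Positive 1223 the log2 fold change was -3.22, and without both libraries numbered 1223 it was -3.23. Without both numbered 1227 the gene was not called (adjusted p = 0.0791).

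Rab27a serves the release of secretory granules, including the Weibel-Palade bodies of endothelial cells. It was at 23.4, 11.8 and 21.6 CPM in Input and 9.50, 16.6 and 14.7 CPM in Positive (chromosome 9, 73044865 to 73097592). The groups overlapped, and it was not called (log2 -0.52 ± 0.32 SE, edgeR adjusted p = 0.199).

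Of the 4 Rabs of the cilium and other processes, Rab28 rose and Rab23, Rab40b and Rab40c were not called. Rab28, known from the photoreceptor cilium, was at 44.6, 35.6 and 44.0 CPM in Input and 65.0, 58.3 and 69.4 CPM in Positive (chromosome 5, 41624976 to 41708155). The groups were apart, a 1.55-fold rise (log2 0.63 ± 0.15 SE, edgeR adjusted p = 0.00658) that was not called without both libraries numbered 1227 (adjusted p = 0.0768). Rab40c, an adaptor of a ubiquitin ligase, was at 31.9, 23.2 and 33.0 CPM in Input and 40.2, 45.7 and 37.4 CPM in Positive (chromosome 17, 25882114 to 25919714). Its groups did not overlap, and its edgeR adjusted p was 0.0542 at log2 0.47 ± 0.18 SE. Rab40b followed the library number more than the fraction, with 4.68, 11.4 and 3.39 CPM in Input and 3.12, 12.2 and 5.24 CPM in Positive.

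Many Rabs come in forms that share a number and much of their coding sequence, so 11 such pairs were compared within each library, where scaling cancels. Their coding sequences were 64.8% (Rab33a and Rab33b) to 78.4% (Rab6a and Rab6b) identical. The ratio of Rab6a to Rab6b stood at a geometric mean of 1.54 in Input and 3.77 in Positive. The log2 ratio was 0.43, 1.09 and 0.34 in Input and 1.88, 2.06 and 1.80 in Positive, a difference of 1.29. The groups did not overlap.

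The Rab11 ratio moved the same way, and Rab11b still exceeded Rab11a by CPM in both fractions. The ratio of Rab11a to Rab11b was 0.575 in Input and 0.868 in Positive. Its log2 values were -0.75, -0.86 and -0.78 in Input and -0.27, -0.14 and -0.21 in Positive, again with no overlap. Since both genes were called higher, this is a difference in size between them.

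Rab5a lost ground to both of its relatives. The difference in log2 ratio was -0.62 to Rab5b and -0.65 to Rab5c, and neither pair overlapped between the fractions, while Rab5b to Rab5c differed by -0.03 and its groups overlapped. Rab33a to Rab33b differed by -3.47 and Rab1 to Rab1b by 0.32, also without overlap. The remaining pairs overlapped, with differences of 0.41 for Rab2a to Rab2b, 0.42 for Rab8a to Rab8b, 0.03 for Rab4a to Rab4b and -0.45 for Rab40b to Rab40c.

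All 6 pairs without overlap had an exact permutation p of 0.10 (two-sided, 3 against 3), the smallest this design allows, and 0.183 after Benjamini-Hochberg adjustment over the 11 pairs. No pair could therefore pass 0.05. Pairs that share a Rab5 gene are not independent of each other. Rab33a had entered the table through Input only, so its separation from Rab33b supports nothing further, which leaves 5 pairs. How often such ratios separate for other genes of the table was not counted, so the number of pairs says nothing particular to the family. Of all single genes, 31.8% had every Positive library above every Input library and 32.6% had every one below.

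**Figure D3:**
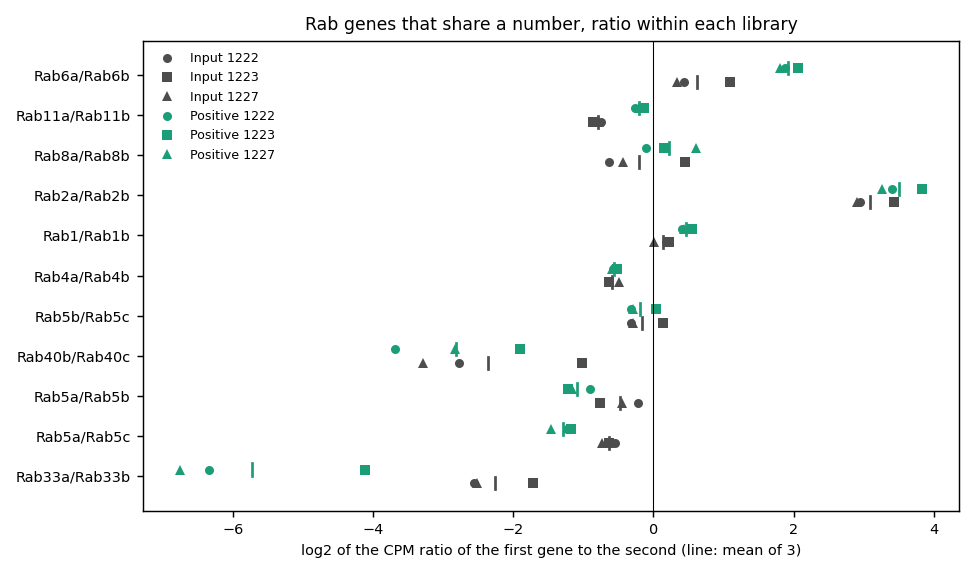
Log2 ratio of the first to the second gene (x axis) in each library for 11 pairs of Rab genes with the same number. Marker shape gives the library number, colour the fraction and the line the mean of 3; the fractions are apart for 6 pairs, among them Rab6a to Rab6b (difference 1.29) and Rab11a to Rab11b (difference 0.59).

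To compare levels between genes, CPM was divided by the length of the annotated exons (GENCODE M21, all exons of a gene merged). On this scale the leading Rab genes in Positive were Rab5c at 132 ± 11.5, Rab2a at 122 ± 7.28, Rab1b at 91.2 ± 5.18, Rab11a at 81.2 ± 9.25 and Rab1 at 75.1 ± 5.23 CPM per kb (SD, n = 3). Rab5c and Rab2a lay within their spread of each other, as did Rab11a with Rab1 and with Rab1b. In Input the order began with Rab2a at 109 ± 6.57, Rab5c at 102 ± 11.3, Rab31 at 77.6 ± 7.66, Rab1b at 77.2 ± 7.64 and Rab10 at 72.3 ± 3.10 CPM per kb.

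Rab5c of the early endosome, with Rab2a and Rab1b of the endoplasmic reticulum and Golgi, were among the first 4 in both orders. Rab31 went from rank 3 of 40 in Input to rank 14 in Positive, and Rab6b from 13 to 27. Rab11a went from rank 9 to 4, Rab12 from 18 to 9, Rab7l1 from 28 to 15 and Rab13 from 33 to 22. The 3 lowest per length in Positive were Rab39b, Rab33a and Rab37, at 0.887, 0.732 and 0.419 CPM per kb. Rab37 was also the lowest of the 40 in Input.

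**Figure D4:**
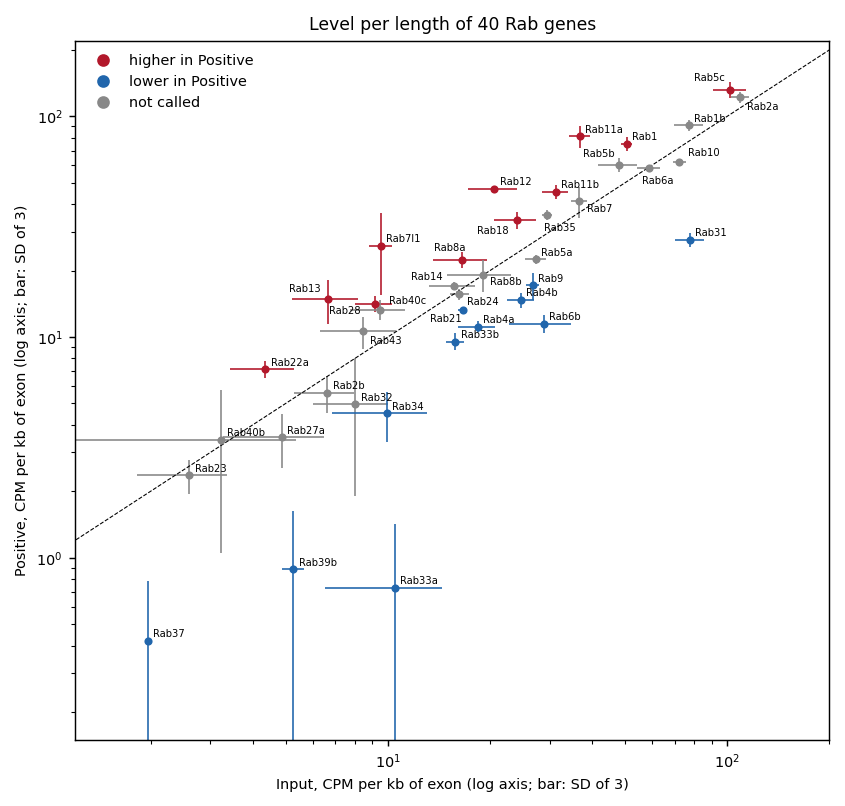
Mean level per kb of exon in Input (x axis) and Positive (y axis), both log scales, with SD of 3 libraries as bars (a bar that meets the frame runs on beyond it) and the line of equal level dashed. Rab5c and Rab2a lead in both fractions, Rab31 and Rab6b lie below the line, and Rab11a, Rab12, Rab7l1 and Rab13 above it.

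The rest of the Rab cycle was read from 4 lists of genes that act on Rabs, apart from the 40. The background for the shares and medians below is 26.1% of all genes higher, 29.4% lower and a median of 0.03. As with the Rab genes, a list gene that passed the table's minimum in 1 fraction only had to be low in the other, so its values are described and its difference supports nothing further. This holds below for Rin1, Micall2 and Rilp (Positive only) and for Sgsm1, Rab11fip4 and Rph3a (Input only). The counts below include such called genes: 2 exchange factor rises, 1 GAP fall, 1 effector rise and 5 effector falls. Of 9 genes for recycling and lipidation of Rabs, 2 rose (22.2%) and 1 fell (11.1%), with a median log2 fold change of 0.09. The rises were Arl6ip5 and Rabac1, a pair of prenylated Rab acceptor proteins. Arl6ip5 went from 106, 151 and 123 CPM to 214, 248 and 250 CPM (log2 0.91 ± 0.16 SE, edgeR adjusted p = 0.00132). Rabac1 rose by log2 0.50 ± 0.17 SE (edgeR adjusted p = 0.0322), a call lost without Input 1222, Positive 1223 or Positive 1227 (adjusted p = 0.0982 to 0.108). The fall was Rabggta, the alpha subunit of the Rab geranylgeranyl transferase that adds the lipid tail, at log2 -0.70 ± 0.19 SE (edgeR adjusted p = 0.0137, and 0.0543 without Positive 1222).

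Gdi2, a widely expressed GDI, was not called, at 393, 418 and 402 CPM in Input and 418, 453 and 414 CPM in Positive (log2 0.08 ± 0.12 SE, edgeR adjusted p = 0.565). Gdi2, Lrrk2 above and the genes marked below as picked by relation were chosen after their values had been seen.

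Among 39 exchange factors tested (46 listed), 11 rose (28.2%) and 9 fell (23.1%), with a median of 0.25. Dennd3, the exchange factor of Rab12, showed the largest rise, from 32.6, 28.8 and 30.3 CPM to 227, 213 and 211 CPM. That is a 7.08-fold difference with tight groups (log2 2.82 ± 0.13 SE, edgeR adjusted p = 2.7e-06), in the same libraries in which Rab12 rose 2.26-fold. Rin1, which acts on Rab5 proteins, was higher by log2 1.27 ± 0.28 SE (Positive only, edgeR adjusted p = 0.00497, and 0.0793 without both libraries numbered 1227). The largest falls were Sbf1, a myotubularin relative with a DENN domain, at log2 -2.15 ± 0.19 SE, and Rab3il1, which activates Rab8, at log2 -1.88 ± 0.46 SE (edgeR adjusted p = 2.75e-05 and 0.00793). Rab3il1 stood at 50.2 CPM in Positive 1222 and at 16.2 and 14.5 CPM in the other Positive libraries, and its log2 fold change was -2.73 without Positive 1222 and -2.53 without both libraries numbered 1222. Picked by relation, Ankrd27, the exchange factor of Rab21, rose by log2 0.79 ± 0.15 SE while Rab21 was lower (edgeR adjusted p = 0.00243).

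Of 32 GAPs tested (34 listed), 8 rose (25%) and 8 fell (25%), with a median of 0.15. Tbc1d4 and Tbc1d1, the related GAPs that hold back Rab10 and its kin in insulin-responsive cells, were the largest rises. Tbc1d4 went from 19.9, 17.2 and 22.8 CPM to 107, 94.0 and 105 CPM, a 5.06-fold difference (log2 2.34 ± 0.15 SE, edgeR adjusted p = 6.03e-06). Tbc1d1 went from 40.8, 44.0 and 37.1 CPM to 102, 86.7 and 93.9 CPM (log2 1.22 ± 0.14 SE, edgeR adjusted p = 9.6e-05). Rab10 itself was not called. Tbc1d9 fell most, at log2 -2.95 ± 0.32 SE (edgeR adjusted p = 7.77e-05). Sgsm1, which passed in Input only, was at 16.5 to 18.3 CPM in Input and 1.85 to 3.30 CPM in Positive.

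Of 55 effectors tested (64 listed), 17 rose (30.9%) and 15 fell (27.3%), with a median of 0.07. Rab11fip1, an effector that ties Rab11 to recycling vesicles, showed the largest rise, from 32.8, 35.2 and 32.1 CPM to 201, 224 and 204 CPM (6.30-fold, log2 2.66 ± 0.13 SE, edgeR adjusted p = 2.7e-06). Of the family's members picked by relation, Rab11fip5 and Rab11fip3 rose, at log2 1.39 ± 0.15 and 0.99 ± 0.20 SE (edgeR adjusted p = 8.54e-05 and 0.00334). Rab11fip2 was lower, at log2 -0.90 ± 0.23 SE (edgeR adjusted p = 0.0101), a call lost without Input 1222 (adjusted p = 0.0518), without both libraries numbered 1222 (0.0738) and without both numbered 1227 (0.0566). Rab11fip4, which passed in Input only, was at 66.9, 54.1 and 58.5 CPM in Input and 4.07, 0.665 and 3.97 CPM in Positive.

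The effectors of Rab7 went both ways, while Rab7 itself was not called. Fyco1, which links Rab7 compartments to kinesin, rose 3.01-fold (log2 1.59 ± 0.16 SE, edgeR adjusted p = 5.83e-05). Picked by relation, Plekhm1 rose (log2 1.31 ± 0.14 SE, edgeR adjusted p = 8.11e-05), and Wdr91 and Osbpl1a fell, at log2 -1.16 ± 0.20 and -0.58 ± 0.12 SE (edgeR adjusted p = 0.00138 and 0.00264). Osbpl1a was not called without both libraries numbered 1227 (adjusted p = 0.0617). Rilp, which passed in Positive only, was not called, at log2 0.59 ± 0.44 SE.

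The Rab27 effectors Sytl2, Myrip and Mlph, all picked by relation, also differed in direction. Sytl2 fell by 3.11 on the log2 scale (SE 0.36, edgeR adjusted p = 0.000124). Myrip rose by log2 0.62 ± 0.16 SE (edgeR adjusted p = 0.011), a call lost without both libraries numbered 1223 (adjusted p = 0.067) and without both numbered 1227 (0.109). Mlph was not called, at log2 -0.43 ± 0.25 SE.

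Rph3a, an effector of the synaptic vesicle Rabs that passed in Input only, was at 51.4, 23.4 and 60.6 CPM in Input and 3.03, 4.21 and 4.98 CPM in Positive. Micall2, the effector of Rab13 at cell junctions, picked by relation and passing in Positive only, was at 12, 8.39 and 15.5 CPM in Input and 29.9, 25.5 and 36.4 CPM in Positive.

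**Figure D5:**
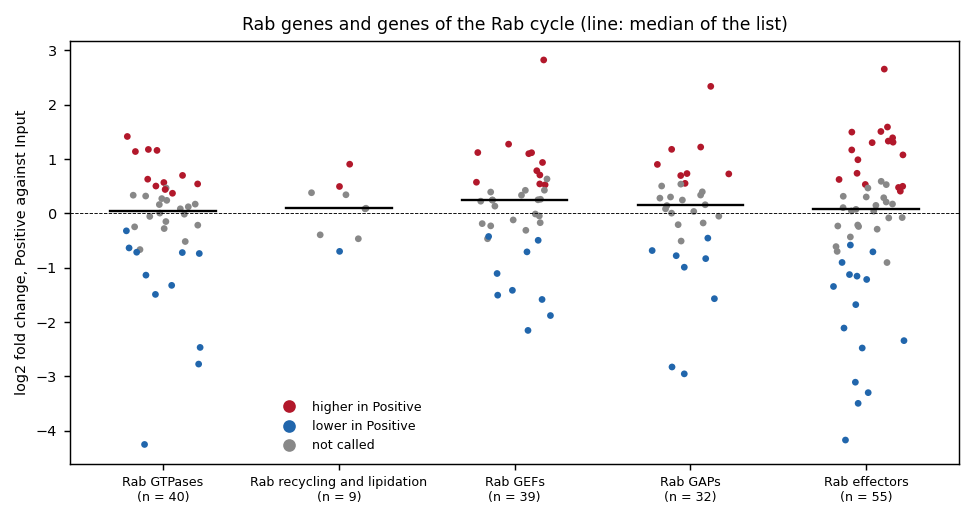
Log2 fold change (y axis, Positive against Input) of the 40 Rab GTPases and of 4 lists of genes that act on them, 1 point per gene with the list's median as a line. Medians lie between 0.05 and 0.25, and each list except recycling and lipidation reaches beyond 2 in at least 1 direction.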

How the data were processed

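The deposited table gives, for 10989 genes and 6 libraries, raw values that are estimated counts (mostly not whole) and log2 normalised values, per the file headers. Genes were kept by the authors where all libraries of at least 1 condition had a raw value of at least 50, per the file headers. The build was mm10 and the tools include DESeq, per the submitters' processing notes. The aligner, the counter, the definition of the deposited log2 scale and whether counting used strand were not given in the sources used here. Without strand, Rab genes whose exons overlap a gene on the other strand (among them Rab24, Rab2b, Rab6a, Rab5a, Rab10, Rab39b and Rab33b) cannot be told apart from that gene. Some 90.4% of the 50-base windows of Rab43 are shared with Gm45140.

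Estimated counts were rounded and tested with edgeR 4.0.16 in R 4.3.3 (filterByExpr at a minimum count of 10, which removed 0 genes; TMM; quasi-likelihood test of fraction alone; Benjamini-Hochberg over all 10989 genes, threshold 0.05). The biological coefficient of variation was 21.6%. Tested on simulated data over 10989 genes, of which 200 were changed, the fit called 76% of 2-fold and 100% of 4-fold changes, with 10 false calls. In the data 55.5% of all genes were called, so these rates do not describe that setting. Alternatives were DESeq2 1.42.0, limma 3.58.1 on the deposited log2 values, no scaling beyond library size, no filter, a replicate block and leaving out libraries. Libraries of equal number deviated alike: deviations from the group means correlated at 0.451, 0.235 and 0.296 for equal numbers and at -0.296 to 0.0207 for unequal ones. Subtracting the group means lowers the unequal values where the equal ones are positive. Both libraries numbered 1223 also share a low depth, so the correlations do not show that a number stands for a shared source.

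Exon lengths, shared 50-base windows and coding identity came from GENCODE M21, and promoters from RefSeq tables. Full values are given for Rab genes called with a log2 fold change of at least 1 in size, for the 2 most abundant of each role group, and the 2 largest called rises and falls of each list are named. Other genes of the lists named in the text were chosen after their values were seen. The Rab genes and the lists were chosen with earlier results of these data known. The values of 1 gene of the recycling and lipidation list are not reported here.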

Additional observations from a re-analysis of the deposited data

How the results depend on the processing

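Of the 22 Rab genes called, 9 kept their call in all 14 alternative settings: Rab31, Rab6b, Rab33a, Rab39b, Rab4b, Rab11a, Rab12, Rab13 and Rab7l1. Rab33a and Rab39b had entered the table through Input only, so their kept calls support nothing further. The value of Rab4b stays uncertain, with 80.3% of its windows shared with Gm21983. Without a single library, 8 to 11 were higher and 10 to 11 lower. Without both libraries of a number, 5 to 10 were higher and 7 to 11 lower: 7 higher without both numbered 1222, and 5 higher and 7 lower without both numbered 1227. DESeq2 called 12 and 11 (Rab40c gained). limma on the deposited log2 values called 10 and 10 (Rab5c, Rab8a and Rab21 lost, Rab40c gained). The filter removed 0 genes, so the setting without it moved nothing. The share of all genes called was not counted for the fits without libraries, DESeq2 or limma. Their counts therefore do not tell the Rab genes from the rest of the table.

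With the replicate block, the pairing by library number ended no Rab call and added Rab1b, Rab5a and Rab5b, at 13 higher and 12 lower. For the pair ratios the block left every difference as it was, and its sign-flip test cannot go below 0.25.

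Directions turned only for values that were not called as reported. Without scaling beyond library size these were Rab14 (-0.0347), Rab40b (-0.0664), Rab8b (-0.15), Chm (-0.0636) and Gdi2 (-0.071). With limma they were Rab24 (0.015) and Rab6a (0.059). Without 1 library, or both of a number, the log2 fold changes ranged from -0.0308 to 0.21 for Rab14, -0.35 to 0.041 for Rab23, -0.0781 to 0.0481 for Rab6a, -0.53 to 0.69 for Rab40b, -0.16 to 0.21 for Rab8b and -0.00592 to 0.18 for Chm. The differences in log2 ratio ranged from -0.91 to 0.22 for Rab40b to Rab40c and from -0.15 to 0.11 for Rab5b to Rab5c. Depth limits the lowest genes: Rab33a, Rab37 and Rab39b rest on few counts in Positive.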
